A study of Mus musculus with 10 samples.

Results

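The genes described here encode 39 chromatin regulators, the enzymes and structural proteins that methylate DNA, modify histones, move nucleosomes or fold the genome. What was measured is open chromatin around those genes in mouse bone marrow progenitors, not their expression. Members were chosen by position: peaks of 10 libraries on chromosomes 1 to 19 and X sharing at least 1 bp were joined into regions, and a merged region belonged to a gene when its centre lay inside the gene's mm10 span or within 20 kb of it. This gave 424 member regions of 114366 merged regions, with 3 to 66 regions a gene (median 9) and no region shared by 2 member genes. Of the 424, 263 were centred inside the member gene and 161 beside it, and 80 lay inside another protein-coding gene, whose chromatin they may equally reflect. No annotation of exons was used here, so regions are placed inside or outside a gene span only.

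The study applied ATAC-seq, a method that maps open chromatin by transposase insertion, to progenitors of C57BL/6 bone marrow purified on magnetic columns and by flow sorting. Each of the 5 groups had 2 libraries. Wild-type (WT) long-term hematopoietic stem cells (LT-HSC) were sorted as Lin- CD117+ Sca-1+ CD135- CD48- CD150+. WT lymphoid-primed multipotent progenitors (LMPP) were Lin- CD117+ Sca-1+ CD135+. WT monocyte-dendritic cell progenitors (MDP) were Lin- Sca-1- CD117+ IL-7R- CD115+, and WT common dendritic cell progenitors (CDP) were CD117int CD135+ and otherwise sorted like MDP (Lin- Sca-1- IL-7R- CD115+). The knockout group, IRF8KO MDP, was sorted by the MDP markers from mice labelled IRF8-deficient, which lack a transcription factor needed for monocyte and dendritic cell development. The genotype was taken from the labels and was not checked here. One field of the LMPP labels named short-term stem cells, and the titles, which say LMPP, were followed. The ages of the mice and the number of animals behind a library are not given in the sources used here. As for replicates, the WT pairs are described as biological duplicates, but no label ties a library to an animal, so p-values measure only the spread between these libraries.

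Chromatin regulators act on most genes at once, and mutations in many of them recur in blood cancers. DNMT3A and TET2, which write and oxidise DNA methylation, are known for restraining the expansion of stem cells, Polycomb proteins for keeping lineage genes silent, and the MLL family (Kmt2) for keeping developmental genes active. SWI/SNF and CHD remodellers move nucleosomes, and CTCF with cohesin forms chromatin loops. Most of these genes are expressed in every blood cell, with start sites rich in CpG dinucleotides.

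Total tags ranged from 4790046 to 10166833 a library and peaks from 31325 to 69598. LT-HSC replicate 1 stood apart, with 31325 peaks and 19.3% of tags in peaks, against 50728 to 69598 peaks and 38.1% to 53.7% in the other 9 libraries. The CDP libraries were sequenced most deeply (10166833 and 7985428 tags). The IRF8KO MDP libraries held fewer peaks (50728 and 54277) than the WT MDP libraries (62130 and 64515). Regions at 7 stem cell genes were detected most often in LMPP (89 and 98 of 125) and LT-HSC replicate 2 (82), against 29 to 52 in the 6 later libraries, a range that also held LT-HSC replicate 1 (38). Regions at 8 monocyte and dendritic genes numbered 17 and 26 of 88 in LT-HSC, 36 and 39 in LMPP, 60 and 59 in WT MDP, 74 and 69 in CDP, and 45 and 50 in IRF8KO MDP. For genes of other cells the ranges over the 10 libraries were 9 to 13 of 17 regions (erythroid), 8 to 15 of 21 (megakaryocyte), 1 to 16 of 23 (neutrophil), 7 to 22 of 35 (B cell), 2 to 6 of 7 (T and NK cell) and 13 to 43 of 65 (lymphoid-primed). Each of the 4 erythroid, 3 megakaryocyte and 3 B cell genes had at least 1 region in every library, so open chromatin near a gene did not separate these cell types. In bulk libraries, fewer open cells and less signal per cell cannot be told apart.

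Start sites of the member genes were open almost without exception. A start window is the 300 bases from 250 before to 50 after an annotated start in RefSeq's GRCm38.p6 table, which held windows for 31 of the 39 members. Chd7, Nsd1, Stag2, Arid2, Rad21, Kdm6b, Hdac1 and Hdac3 had no entry. A peak covered at least 1 start window of the gene in all 10 libraries for 29 of 31 members (93.5%), against 8415 of 17274 protein-coding genes (48.7%). The exceptions were Kmt2d, whose start was without a peak in LT-HSC replicate 1 and LMPP replicate 2, and Tet1, without one in IRF8KO MDP replicate 1. Within a gene, however, alternative starts differed. The sequences of 3 genes are shown because their starts differ in detection, written 5′ to 3′ along the gene's strand with CpG dinucleotides in capitals.

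Dnmt1 start open in 10 libraries, chr9:20952574-20952873, minus strand: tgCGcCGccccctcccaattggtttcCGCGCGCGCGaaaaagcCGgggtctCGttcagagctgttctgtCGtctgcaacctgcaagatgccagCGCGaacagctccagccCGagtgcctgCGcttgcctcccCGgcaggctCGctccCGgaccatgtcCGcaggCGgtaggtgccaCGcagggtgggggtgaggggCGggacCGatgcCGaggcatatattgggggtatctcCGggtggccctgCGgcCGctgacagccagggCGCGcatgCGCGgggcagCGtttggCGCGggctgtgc
Dnmt1 start open in 0 libraries, chr9:20959839-20960138, minus strand: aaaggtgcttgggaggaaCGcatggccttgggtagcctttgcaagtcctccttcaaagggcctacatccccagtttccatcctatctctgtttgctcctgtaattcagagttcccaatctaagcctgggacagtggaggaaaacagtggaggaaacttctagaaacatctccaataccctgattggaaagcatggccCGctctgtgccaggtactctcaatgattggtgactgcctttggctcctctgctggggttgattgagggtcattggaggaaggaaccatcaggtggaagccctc
Ncor1 start open in 10 libraries, chr11:62457283-62457582, minus strand: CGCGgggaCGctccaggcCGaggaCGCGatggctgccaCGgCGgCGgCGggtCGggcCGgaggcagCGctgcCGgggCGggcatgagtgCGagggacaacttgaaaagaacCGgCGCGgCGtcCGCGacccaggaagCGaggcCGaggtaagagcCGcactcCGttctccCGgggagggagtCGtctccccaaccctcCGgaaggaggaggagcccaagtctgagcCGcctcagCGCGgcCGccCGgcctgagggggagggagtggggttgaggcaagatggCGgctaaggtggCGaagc
Ncor1 start open in 0 libraries, chr11:62438466-62438765, minus strand: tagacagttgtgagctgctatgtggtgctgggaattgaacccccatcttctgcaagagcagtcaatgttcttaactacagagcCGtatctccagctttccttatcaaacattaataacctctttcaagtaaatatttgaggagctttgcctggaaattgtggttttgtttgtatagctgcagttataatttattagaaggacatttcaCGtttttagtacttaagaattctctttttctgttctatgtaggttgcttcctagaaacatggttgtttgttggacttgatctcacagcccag
Dnmt3a start open in 10 libraries, chr12:3806910-3807209, plus strand: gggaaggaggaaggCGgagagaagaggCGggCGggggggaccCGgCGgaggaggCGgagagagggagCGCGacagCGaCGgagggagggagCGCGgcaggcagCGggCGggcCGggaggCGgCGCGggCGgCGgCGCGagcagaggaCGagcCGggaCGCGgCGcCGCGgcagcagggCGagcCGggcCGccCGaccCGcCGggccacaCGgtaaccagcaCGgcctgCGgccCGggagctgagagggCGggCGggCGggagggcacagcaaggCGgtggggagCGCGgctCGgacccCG
Dnmt3a internal start, open in 9 libraries, chr12:3891494-3891793, plus strand: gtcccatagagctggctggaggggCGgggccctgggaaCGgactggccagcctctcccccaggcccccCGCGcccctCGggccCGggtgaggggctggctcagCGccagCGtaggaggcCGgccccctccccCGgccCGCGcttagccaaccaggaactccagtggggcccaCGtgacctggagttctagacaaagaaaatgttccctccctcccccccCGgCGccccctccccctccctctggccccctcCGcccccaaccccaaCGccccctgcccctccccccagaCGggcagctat

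Where a gene had several starts open in all 10 libraries, the one with the most CpG dinucleotides is printed. Dnmt1 had 2 such starts, the printed one with 33 CpG dinucleotides and another with 12, and its start without a peak held 2. The open Ncor1 start held 36 and the other held 2. Dnmt3a had 2 overlapping windows open in all 10 libraries, the upstream one with 46 and the printed one with 47, and the internal start, which lacked a peak only in LT-HSC replicate 1, held 18. Over the 39 start windows of the 31 members (a gene can have several, and neighbouring windows overlap), the 34 with a peak in all 10 libraries had a median of 32.5 CpG dinucleotides (range 12 to 57). Over all genes that median was 23 for the 9733 windows open in all 10 libraries and 3 for the 7462 windows open in none.

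The letters GGGCGG, a core bound by SP factors, stood on either strand in 33 of the 39 member windows (84.6%), against 46.7% of all 21045 windows and 70.5% of those open in all 10 libraries. CCAAT, read by NF-Y, stood in 11 member windows (28.2%, against 38.5% of all windows and 39.6% of those open in all 10 libraries). The shares that follow give the same 3 values in that order. CCGGAAG, an ETS form, stood in 4 (10.3%, 11.7% and 21.3%), GCGCATGC, read by NRF1, in 3 (7.69%, 3.54% and 6.2%), and TGACGTCA, the cyclic AMP response element, in 0 (against 2.26% and 3.72%). Of motifs read by factors of blood cells, TGTGGT, read by RUNX factors, stood in 7 (17.9%, 14.7% and 11.5%), the ETS-IRF composite GGAANNGAA in 2 (5.13%, 7.6% and 6.84%) and the interferon response form GAAANNGAA in 2 (5.13%, 8.1% and 6.39%). TTGCNNAA, a C/EBP form, stood in 1 (2.56%, 10.3% and 7.47%), AGATAA, read by GATA factors, in 1 (2.56%, 9.68% and 5.09%), TGANTCA, read by AP-1, in 1 (2.56%, 7.04% and 3.85%), and GAGGAAGT, a PU.1 form, in 0 (against 3.15% of either). GGAANNGAA and GAAANNGAA can overlap each other, and a match is a description of letters, not of binding.

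Detection of member regions was lowest in LT-HSC and highest in CDP. Of 424 regions, 138 and 204 were detected in the LT-HSC libraries, 228 and 238 in LMPP, 235 and 236 in WT MDP, 281 and 258 in CDP, and 202 and 234 in IRF8KO MDP. The CDP libraries were the highest and LT-HSC replicate 1 the lowest, while LT-HSC replicate 2 lay above IRF8KO MDP replicate 1. These counts are 32.5% to 66.3% of the member regions, and the share over all merged regions in the same library was 26.4% to 59.7%. Member regions within 1 kb of a gene end varied little between libraries (81.6% to 90.8%), and those farther away carried the differences (21.8% to 61.5%). Regions present in all 10 libraries made up 113 of the 424 (26.7%, Wilson 95% interval 22.7 to 31.1), against 17% of all merged regions and 19.6% of those within 20 kb of a protein-coding gene. Intervals here cover counting error only, and neighbouring regions of a gene are not independent.

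**Figure D1:**
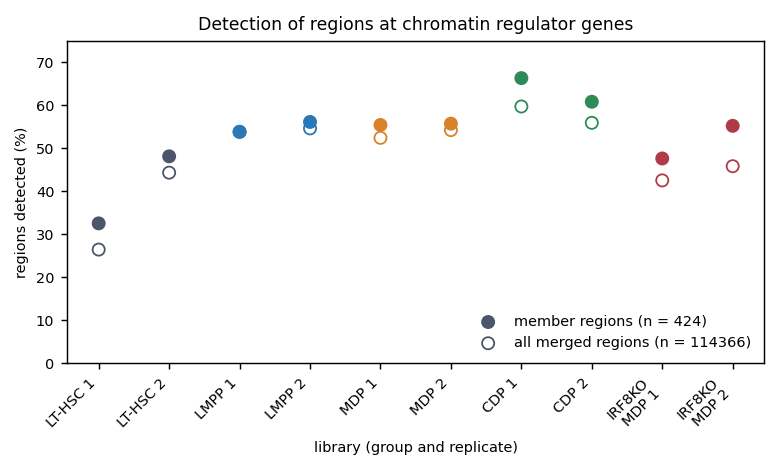
Percent of regions detected (y axis) in each of the 10 libraries (x axis, coloured by group), for the 424 member regions (filled) and all 114366 merged regions (open). Member regions run from 32.5% in LT-HSC replicate 1 to 66.3% in CDP replicate 1. They lie above the open points in every library except LMPP replicate 1, where both round to 53.8%.

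Groups were set against each other in 5 comparisons, 4 along development and 1 between knockout and WT MDP. A region was called gained when the later (or knockout) group had it in both libraries and the earlier (or WT) group in neither, and lost in the opposite case. For each gene, the accessible length, which is the summed length of a library's peaks in its regions, was compared with limma on log2(length in bp + 500), fitted over 17015 protein-coding genes in all 10 libraries, with Benjamini-Hochberg adjustment and a threshold of 0.05. Differences in accessible length are on this log2 scale, which understates changes of short lengths.

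Between LT-HSC and LMPP, accessible length was longer at Tet2, which encodes an oxidase of methylated cytosine, and at Arid1b, a DNA-binding subunit of SWI/SNF. Member regions gained numbered 38 of 424 (8.96%, interval 6.6 to 12.1) beside 12.7% of all merged regions, and those lost numbered 5 (1.18%, interval 0.505 to 2.73) beside 1.62%. Arid1b alone gave 13 of the 38 gains. Tet3 had 3, and Tet2, Asxl2, Jarid2, Nsd1 and Stag2 had 2 each. Accessible length was called longer at 2 of 39 members beside 11.2% of all genes and shorter at 0 beside 0.17%, and 7 of 39 members had an unadjusted p under 0.05 beside 32.8% of all genes. The difference at Tet2 was 1.17 ± 0.29 (SE; limma adjusted p = 0.0349) and that at Arid1b 1.09 ± 0.30 (SE; limma adjusted p = 0.046). The median difference was 0.25 over the members and 0.41 over all genes. With each library centred on its own median, Tet2 (0.74) and Arid1b (0.66) stayed past the threshold, and Arid2 (-0.44) and Kmt2d (-0.43) passed it as shorter. Of all 17015 genes, 1577 were then called longer and 958 shorter. The share of calls over all genes that were longer went from 98.5% to 62.2%. From regions inside the gene span only, neither was called (Tet2 at 1.16 with a limma adjusted p of 0.0508, Arid1b at 1.08 with 0.0705). Without LT-HSC replicate 1, Tet2 differed by 0.70 and Arid1b by 0.63, beside a median of 0.11 over all genes. Without LT-HSC replicate 2 these values were 1.64, 1.55 and 0.70. They were 1.13, 1.12 and 0.43 without LMPP replicate 1, and 1.21, 1.06 and 0.40 without LMPP replicate 2. Each such fit leaves 1 library in a group, so calls of single genes are not given. With every list trimmed in row order to the length of the shortest, 31325 peaks, gained regions were 2.12% and lost regions 3.3%, beside 4.32% and 3.47% of all regions. The lost regions numbered 5.9% of members without LT-HSC replicate 1, beside 6.76% of all regions, and the gained 17.7% without LT-HSC replicate 2, beside 23.6%, or 15.1% without LMPP replicate 1, beside 18.5%.

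Between LMPP and WT MDP, gains numbered 31 (7.31%, interval 5.2 to 10.2) beside 10.3% of all regions, and losses 30 (7.08%, interval 5 to 9.92) beside 10.6%. With trimmed lists, gains were 5.42% and losses 2.83%, beside 5.75% and 6.04% of all regions. Of the losses, 10 lay at Arid1b, 3 at Tet3 and 3 at Asxl2, while Chd7 had 5 of the gains and Asxl1 and Jarid2 had 3 each. None of the 39 members was called, with 0 longer beside 2.76% of all genes and 0 shorter beside 3.12%, and 2 members (Ezh1 at 0.59 ± 0.22 SE and Dnmt1 at 0.54 ± 0.23 SE) had an unadjusted p under 0.05 beside 23% of all genes. After centring, Dnmt1 (0.47) was called longer, and Arid1b (-0.34) and Hdac3 (-0.43) shorter. Of all 17015 genes, 1825 were then called longer and 2118 shorter. The median difference was 0.06 over the members and 0.08 over all genes. Without either WT MDP library gains came to 11.1% (beside 14.6% without replicate 1 and 13.6% without replicate 2), and without LMPP replicate 1 losses came to 10.8% (beside 15.2%).

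Between WT MDP and CDP, gained regions numbered 26 (6.13%, interval 4.22 to 8.83) beside 6.48% of all regions, of which 7 lay at Arid1b and 4 at Tet3. Lost regions numbered 11 (2.59%, interval 1.45 to 4.59) beside 3.64%, 3 of them at Chd7. With trimmed lists, 4 regions were gained (0.943%) and 5 lost (1.18%), beside 2.82% and 2.51% of all regions. Accessible length was called longer at 0 of 39 members beside 0.0823% of all genes and shorter at 0 beside 0.165%. The 4 members with an unadjusted p under 0.05, beside 13.2% of all genes, were Smarca4 (0.87), Tet3 (0.72), Kmt2a (0.53) and Setd2 (0.54), and the lowest adjusted p among members was 0.183. Over all genes, centring moved the share of calls that were longer from 33.3% of 42 calls to 20.8% of 443. The median difference was 0.23 over the members and 0.24 over all genes. Gains came to 12.7% without CDP replicate 2, beside 11% of all regions, and losses to 4.95% without WT MDP replicate 1 (beside 7.04%) or 4.72% without replicate 2 (beside 6.12%).

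From stem cells to CDP, 20 of 39 members had longer accessible length. Gained regions numbered 86 (20.3%, interval 16.7 to 24.4) beside 24.1% of all regions, and lost regions 10 (2.36%, interval 1.29 to 4.29) beside 5.4%. The 20 longer members (51.3%) stood beside 53% of all genes and the 0 shorter members beside 3.86%, so the member share lay near that of genes at large. The median difference was 0.66 over the members and 0.73 over all genes. After centring, the longer members were Dnmt1 and Arid1b, and 8 members (Arid2, Rad21, Hdac2, Hdac3, Eed, Kmt2c, Ctcf and Tet1) were called shorter. Of all 17015 genes, 3178 were then called longer and 3444 shorter (38.9% called in all). The share of calls over all genes that were longer went from 93.2% to 48%. The median difference over all genes was 0.43 without LT-HSC replicate 1 and 1.015 without LT-HSC replicate 2. It was 0.67 without CDP replicate 1 and 0.79 without CDP replicate 2. In that order, Dnmt1 differed by 1, 1.52, 1.38 and 1.14, and Arid1b by 0.77, 1.69, 1.09 and 1.37. Each such fit leaves 1 library in a group, so calls of single genes are not given. Lost regions came to 9.67% without LT-HSC replicate 1, beside 14.3% of all regions. With trimmed lists, gained regions were 6.37% and lost regions 5.19%, beside 9.1% and 7.67% of all regions. With the same trimmed lists, limma called 12 members longer and 1 shorter, and called 41.7% of the 15815 genes then tested. CDP had the most tags, and the part of sequencing depth in these differences was not tested.

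Between WT MDP and MDP lacking IRF8, lost member regions outnumbered gained ones in the full lists, but not in lists of equal length. Lost regions numbered 23 (5.42%, interval 3.64 to 8.01) beside 8.99% of all regions, and gained regions 10 (2.36%, interval 1.29 to 4.29) beside 2.69%. Both knockout libraries held fewer peaks than both WT libraries. With every list trimmed to 31325 peaks, lost regions were 1.89% and gained regions 3.3%, beside 3.56% and 2.93% of all regions. Kdm6a had 3 of the losses, and Tet2, Asxl1, Asxl2, Kmt2c, Smarca2 and Arid1b had 2 each. Of the 10 gains, Arid1b had 3. No member was called by limma, with 0 longer beside 0.0353% of all genes and 0 shorter beside 1.26%, and 3 had an unadjusted p under 0.05 beside 14% of all genes. Those were Kdm6a at -0.56 ± 0.20 (SE), Cbx7 at -0.72 ± 0.29 and Ep300 at -0.46 ± 0.20, with adjusted p values of 0.248, 0.295 and 0.342. The median difference was -0.12 over the members and -0.19 over all genes. After centring, no member was called, beside 3.86% of all genes, and the share of calls over all genes that were longer went from 2.71% to 18%. Without knockout replicate 1 the order also turned, with gains of 7.78% and losses of 6.37%, beside 5.86% and 10.8% of all regions. Losses came to 9.67% without WT MDP replicate 1 (beside 13.6%) or 8.96% without replicate 2 (beside 12.9%).

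**Figure D2:**
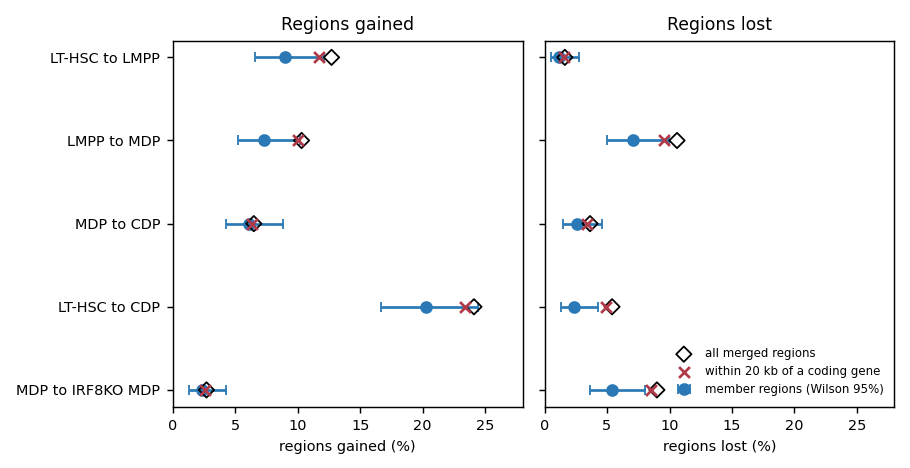
Percent of regions gained (left) and lost (right) in the 5 comparisons (y axis), for member regions (filled circles with Wilson 95% intervals), regions within 20 kb of a protein-coding gene (crosses) and all merged regions (diamonds). Member gains from LT-HSC to CDP reach 20.3% beside 24.1% of all regions, and every member point lies below its diamond.

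**Figure D3:**
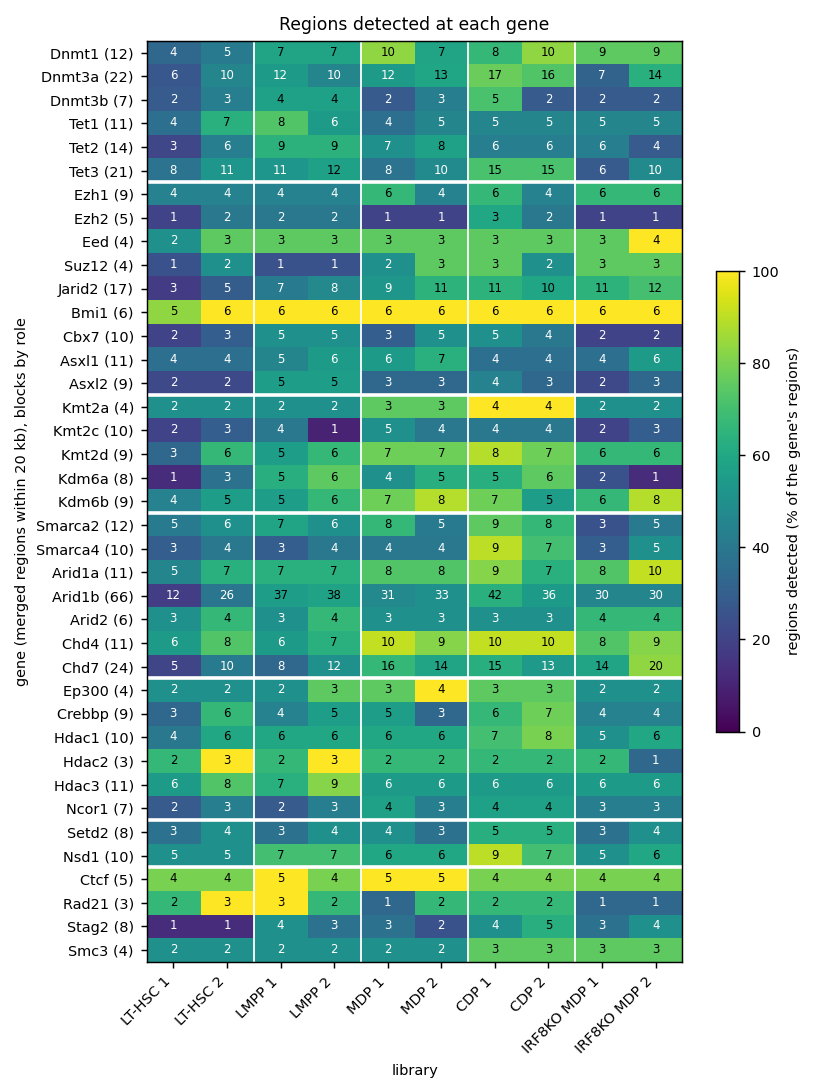
Number of regions detected (figures in the cells) and percent of the gene's regions (colour) at each of the 39 genes (y axis, blocks by role, merged regions within 20 kb in brackets) in each of the 10 libraries (x axis). Bmi1 is near complete in all libraries (5 or 6 of 6), while Arid1b goes from 12 of 66 in LT-HSC replicate 1 to 42 in CDP replicate 1.

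Among the DNA methylation genes (87 regions at 6 genes), the libraries detected 27 and 42 regions in LT-HSC, 51 and 48 in LMPP, 43 and 46 in WT MDP, 56 and 54 in CDP, and 35 and 44 in IRF8KO MDP. Dnmt1 (gene 13433, chromosome 9, 20907206 to 20959888), the maintenance methyltransferase, had 2.9 and 4.37 kb in LT-HSC, 5.03 and 5.45 kb in LMPP, 8.66 and 7.13 kb in WT MDP, 8.48 and 10.1 kb in CDP, and 6.31 and 7.17 kb in IRF8KO MDP of accessible length. LT-HSC was lowest with no overlap with any other group, WT MDP and CDP lay above both LMPP libraries, and the knockout overlapped WT MDP. Its difference from LT-HSC to CDP was 1.26 ± 0.23 (SE; limma adjusted p = 0.00198), and 0.49 after centring and 0.64 from regions inside the gene span only (limma adjusted p = 0.132). A region upstream of it (chr9:20961377-20962054) was detected in all 8 libraries after LT-HSC and in neither LT-HSC library, and another (chr9:20966548-20967327), inside the neighbouring gene S1pr2, in all 6 MDP and CDP libraries and no other. The region chr9:20923219-20923764 inside Dnmt1 was detected in both CDP libraries only.

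Dnmt3a (gene 13435, chromosome 12, 3801559 to 3914443), a de novo methyltransferase, had 6.67 and 12.6 kb in LT-HSC, 14.3 and 12.5 kb in LMPP, 14.0 and 13.1 kb in WT MDP, 18 and 17.4 kb in CDP, and 8.15 and 12.1 kb in IRF8KO MDP. CDP lay above all other libraries, and LT-HSC replicate 2 lay within the LMPP range while replicate 1 was far below. The knockout libraries were both below the WT MDP libraries. The LT-HSC to CDP difference was 0.91 ± 0.30 (SE; limma adjusted p = 0.0269), and 0.14 after centring, 0.85 from regions inside the gene span only (limma adjusted p = 0.0567), and 0.50 with trimmed lists (limma adjusted p = 0.075). Its region chr12:3861240-3862755 was detected in all 8 libraries after LT-HSC. The other de novo enzyme, Dnmt3b (gene 13436, chromosome 2, 153649411 to 153687730), had 1.54 and 2.54 kb in LT-HSC, 3.64 and 3.21 kb in LMPP, 2.42 and 2.75 kb in WT MDP, 4.78 and 2.72 kb in CDP, and 2.34 and 2.33 kb in IRF8KO MDP. LMPP lay above LT-HSC, and CDP replicate 2 lay among the MDP values. The difference to CDP was 0.73 ± 0.28 (SE; limma adjusted p = 0.0453), but -0.04 after centring and 0.63 with trimmed lists (limma adjusted p = 0.051). A region 10.1 kb before its start (chr2:153638821-153639857) was detected in both LT-HSC and both LMPP libraries and no other, and chr2:153651041-153652054 in both LMPP libraries only.

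Tet2 (gene 214133, chromosome 3, 133463677 to 133545136) had 2.97 and 6.17 kb in LT-HSC, 10.6 and 10.0 kb in LMPP, 10.6 and 11.0 kb in WT MDP, 10.8 and 10.1 kb in CDP, and 8.43 and 6.4 kb in IRF8KO MDP. The 6 WT libraries after LT-HSC lay together, both LT-HSC libraries were lowest, and the knockout libraries lay between. From LT-HSC to CDP the difference was 1.18 ± 0.29 (SE; limma adjusted p = 0.00781), and 0.41 after centring. Inside the gene, chr3:133532635-133533243 was detected in the WT MDP libraries only, and chr3:133518549-133519571 in WT MDP, CDP and LMPP replicate 2 but in neither knockout library. Tet3 (gene 194388, chromosome 6, 83362373 to 83457208), a related oxidase, had 6.44 and 9.38 kb in LT-HSC, 9.27 and 10.4 kb in LMPP, 8.25 and 7.86 kb in WT MDP, 13.9 and 13.2 kb in CDP, and 5.08 and 8.22 kb in IRF8KO MDP. CDP was highest, LMPP lay above WT MDP and knockout, and LT-HSC overlapped both LMPP and WT MDP. Between LT-HSC and CDP it differed by 0.76 ± 0.26 (SE; limma adjusted p = 0.0299), but -0.01 after centring and 0.40 with trimmed lists (limma adjusted p = 0.0943). At Tet3, 3 regions were detected in both CDP libraries only (chr6:83399825-83400445, chr6:83427994-83429062 and chr6:83443936-83444652). One was in both LMPP libraries only (chr6:83409878-83410551) and one, inside the neighbour Bola3, in both LT-HSC libraries only (chr6:83351650-83352303). Tet1, the third oxidase, ranged over 4 to 8 of 11 regions and 2.94 to 6.94 kb with no call in any comparison before centring.

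**Figure D4:**
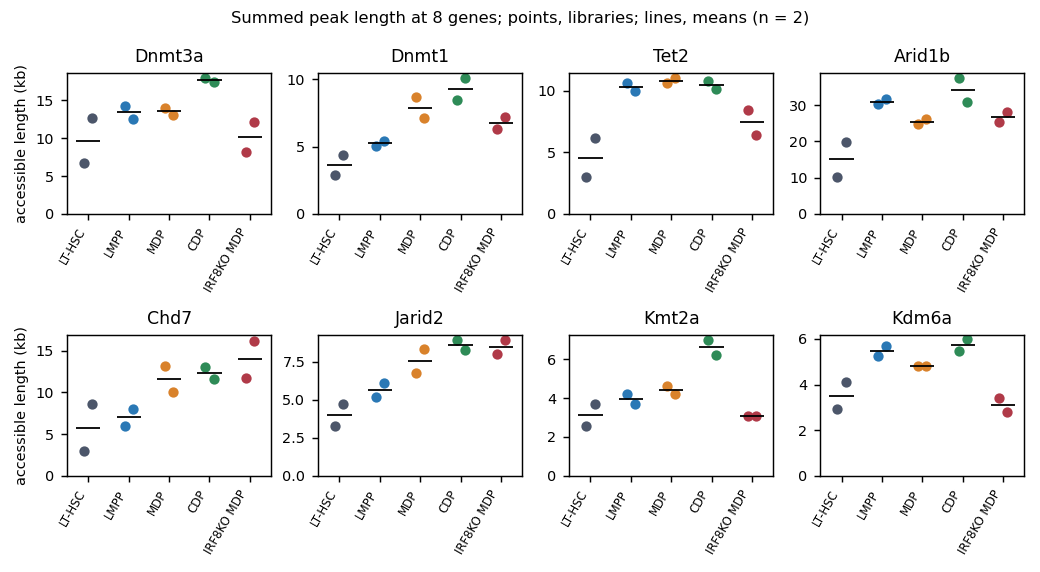
Accessible length (y axis, kb, starting at 0) of 8 member genes by group (x axis), points for the 2 libraries of a group and lines for their mean. Both LT-HSC libraries are lowest at Dnmt1, Tet2, Arid1b and Jarid2, both CDP libraries are highest at Dnmt3a and Kmt2a, and at Kdm6a the knockout libraries (3.42 and 2.81 kb) lie in or below the LT-HSC range.

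Among the Polycomb genes and their partners (75 regions at 9 genes), 24 and 31 regions were detected in LT-HSC, 38 and 40 in LMPP, 39 and 43 in WT MDP, 45 and 38 in CDP, and 38 and 43 in IRF8KO MDP. Jarid2 (gene 16468, chromosome 13, 44730774 to 44921643), a DNA-binding partner of Polycomb repressive complex PRC2, had 3.25 and 4.76 kb in LT-HSC, 5.19 and 6.11 kb in LMPP, 6.78 and 8.37 kb in WT MDP, 8.91 and 8.27 kb in CDP, and 7.99 and 8.97 kb in IRF8KO MDP. Every LMPP library lay above LT-HSC and every WT MDP library above LMPP, while WT MDP, CDP and knockout overlapped. The difference from LT-HSC to CDP was 1.03 ± 0.22 (SE; limma adjusted p = 0.00451), and 0.26 after centring and 0.35 with trimmed lists (limma adjusted p = 0.207). Regions at chr13:44721868-44722660 and chr13:44760531-44761274 were detected in all 6 MDP and CDP libraries and in none before. The region chr13:44767584-44768382 was detected in the WT and knockout MDP libraries only, and chr13:44718206-44718717 and chr13:44807989-44808741 in the CDP libraries only.

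Ezh1 (gene 14055, chromosome 11, 101191115 to 101226463), a PRC2 methyltransferase typical of resting cells, had 2.17 and 2.13 kb in LT-HSC, 2.75 and 2.58 kb in LMPP, 4.86 and 3.72 kb in WT MDP, 6.04 and 4.25 kb in CDP, and 4.46 and 4.65 kb in IRF8KO MDP. LMPP lay above LT-HSC, and all 6 MDP and CDP libraries lay above LMPP. Against LT-HSC, CDP differed by 1.07 ± 0.22 (SE; limma adjusted p = 0.00331), and 0.30 after centring and 0.46 from regions inside the gene span only (limma adjusted p = 0.22). No region of Ezh1 was gained or lost along the WT path, so its length differed without a region passing the rule of both libraries against neither. Ezh2, the PRC2 methyltransferase of dividing cells, ranged over 1 to 3 of 5 regions and 1.43 to 3.33 kb, with 1 region in the LMPP libraries only (chr6:47527584-47528242) and 1 in the CDP libraries only (chr6:47523883-47524529). The core subunits Eed and Suz12 ranged over 2 to 4 of 4 regions and 3.03 to 4.54 kb and 1 to 3 of 4 regions and 0.626 to 2.7 kb.

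Asxl2 (gene 75302, chromosome 12, 3426857 to 3510811), a partner of the deubiquitinase BAP1, had 2.47 and 2.9 kb in LT-HSC, 4.49 and 4.73 kb in LMPP, 3.94 and 3.44 kb in WT MDP, 4.66 and 4.04 kb in CDP, and 2.6 and 3.79 kb in IRF8KO MDP. LT-HSC lay below the other WT groups, LMPP and CDP overlapped, and knockout replicate 1 lay within the LT-HSC values. CDP and LT-HSC differed by 0.61 ± 0.21 (SE; limma adjusted p = 0.0344), but -0.17 after centring and -0.03 from regions inside the gene span only (limma adjusted p = 0.912). A pair of regions before its start (chr12:3418468-3419735 and chr12:3420466-3421250) was found in the 4 WT MDP and CDP libraries alone, and a neighbouring region (chr12:3423641-3424604) in the knockout libraries only. Its relative Asxl1 (gene 228790, chromosome 2, 153345830 to 153404007) had 3.06 and 3.31 kb in LT-HSC, 3.56 and 4.2 kb in LMPP, 5.42 and 5.03 kb in WT MDP, 4.5 and 4.1 kb in CDP, and 3.54 and 5.05 kb in IRF8KO MDP. LT-HSC was lowest, and knockout replicate 2 fell between the WT MDP libraries, which were otherwise the highest. Asxl1 was called in no comparison. Its region chr2:153404241-153404918 was detected in the WT MDP libraries only, and chr2:153325468-153326222, inside the neighbour Kif3b, in WT MDP and CDP only. Of the PRC1 genes, Bmi1 ranged over 5 to 6 of 6 regions and 4.2 to 8.94 kb with no region gained or lost in any comparison, and Cbx7 over 2 to 5 of 10 regions and 1.13 to 3.22 kb.

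Among the H3K4 methyltransferases and H3K27 demethylases (40 regions at 5 genes), 12 and 19 regions were detected in LT-HSC, 21 and 21 in LMPP, 26 and 27 in WT MDP, 28 and 26 in CDP, and 18 and 20 in IRF8KO MDP. Both knockout libraries lay below both WT MDP libraries. Of the 40 regions, 7 were lost in the knockout (17.5%, interval 8.75 to 31.9) and 0 gained, beside 8.99% and 2.69% of all regions. With trimmed lists, 1 was lost (2.5%) and 3 gained (7.5%), beside 3.56% and 2.93% of all regions. Kdm6a (gene 22289, chromosome X, 18160862 to 18279936), the X-linked H3K27 demethylase UTX, had 2.92 and 4.09 kb in LT-HSC, 5.23 and 5.69 kb in LMPP, 4.82 and 4.81 kb in WT MDP, 5.46 and 6.0 kb in CDP, and 3.42 and 2.81 kb in IRF8KO MDP. The knockout libraries lay below all 6 LMPP, WT MDP and CDP libraries and overlapped LT-HSC. Its detected regions, out of 8, numbered 1 and 3 in LT-HSC, 5 and 6 in LMPP, 4 and 5 in WT MDP, 5 and 6 in CDP, and 2 and 1 in IRF8KO MDP. The LT-HSC to CDP difference was 0.65 ± 0.20 (SE; limma adjusted p = 0.0226), but -0.12 after centring. The lost regions were chrX:18186666-18187801 and chrX:18239521-18240174 inside the gene and chrX:18284501-18285201 beyond its end. A further region (chrX:18177674-18178440) was detected in both LMPP and both CDP libraries and no other, so it was lost and then gained along the path.

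Kmt2a (gene 214162, chromosome 9, 44803355 to 44881352), the MLL1 methyltransferase, had 2.56 and 3.69 kb in LT-HSC, 4.2 and 3.67 kb in LMPP, 4.64 and 4.21 kb in WT MDP, 7.01 and 6.23 kb in CDP, and 3.06 and 3.1 kb in IRF8KO MDP. CDP lay above every other library, the knockout libraries lay below both WT MDP libraries, and LT-HSC and LMPP overlapped. The CDP difference from LT-HSC was 0.99 ± 0.21 (SE; limma adjusted p = 0.00386), and 0.22 after centring. One region inside the gene (chr9:44867526-44868166) was detected in WT MDP and CDP only, and one beyond it, in the neighbour Ttc36, in CDP only (chr9:44801439-44802399). Kmt2c and Kmt2d, the MLL3 and MLL4 enhancer methyltransferases, ranged over 1 to 5 of 10 regions and 2.98 to 4.73 kb and 3 to 8 of 9 regions and 4.01 to 8.51 kb. In the knockout, Kmt2c lost 2 regions (chr5:25318517-25319178 and chr5:25435993-25436528) and Kmt2d lost 1 (chr15:98877251-98877812). Kdm6b, the related demethylase JMJD3, ranged over 4 to 8 of 9 regions and 6.39 to 12.4 kb and lost none there.

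Among the remodellers (140 regions at 7 genes), 39 and 65 regions were detected in LT-HSC, 71 and 78 in LMPP, 80 and 76 in WT MDP, 97 and 84 in CDP, and 70 and 83 in IRF8KO MDP. Arid1b (gene 239985, chromosome 17, 4994297 to 5347656) held 66 of them, 64 inside its 353 kb span, which makes it the longest member. Its detected regions numbered 12 and 26 in LT-HSC, 37 and 38 in LMPP, 31 and 33 in WT MDP, 42 and 36 in CDP, and 30 and 30 in IRF8KO MDP. Accessible length was 10.2 and 19.8 kb in LT-HSC, 30.2 and 31.6 kb in LMPP, 24.8 and 26.1 kb in WT MDP, 37.4 and 30.8 kb in CDP, and 25.2 and 28.1 kb in IRF8KO MDP. LT-HSC was lowest, LMPP lay above WT MDP, CDP overlapped LMPP, and the knockout overlapped WT MDP. The difference from LT-HSC to CDP was 1.23 ± 0.30 (SE; limma adjusted p = 0.00785), and 0.46 after centring.

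Some Arid1b regions were detected in 1 group alone. Both LMPP libraries alone detected 4 regions (chr17:4980031-4980697, chr17:5205070-5205591, chr17:5222942-5223458 and chr17:5270729-5271387), and both CDP libraries alone detected 5 (chr17:5001655-5002225, chr17:5025276-5025904, chr17:5069243-5069928, chr17:5185281-5185975 and chr17:5275832-5276375). The LT-HSC libraries alone detected 1 (chr17:5224924-5225566), next to an LMPP-only region, and the knockout libraries alone detected 2 (chr17:5261232-5262860 and chr17:5264963-5266234). One region (chr17:5077927-5078767) was detected in both LMPP and both CDP libraries and no other, and one (chr17:5094568-5095248) in both LMPP and both knockout libraries and no other. From LT-HSC to LMPP, 13 of the 66 Arid1b regions were gained (19.7%) and 1 lost (1.52%), beside 12.7% and 1.62% of all regions. From LMPP to WT MDP, 1 was gained (1.52%) and 10 lost (15.2%), beside 10.3% and 10.6%. From LT-HSC to CDP, 19 were gained (28.8%) and 2 lost (3.03%), beside 24.1% and 5.4%. Whether these shares differ from those of all regions was not tested.

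**Figure D5:**
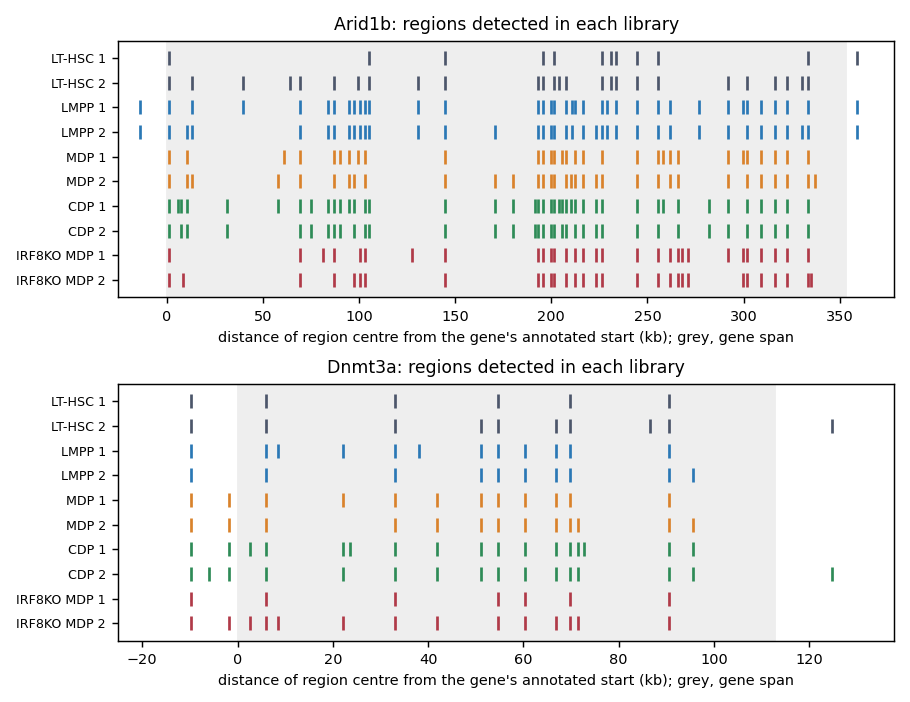
Regions detected in each of the 10 libraries (rows) at Arid1b (top) and Dnmt3a (bottom), placed by the distance of the region's centre from the annotated start (x axis, kb, in the direction of the gene), with the gene span in grey. Arid1b shows 12 marks in LT-HSC replicate 1 and 42 in CDP replicate 1, spread along the gene, whereas Dnmt3a shows 6 and 17.

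Chd7 (gene 320790, chromosome 4, 8690402 to 8868449), a CHD remodeller, had 5 and 10 in LT-HSC, 8 and 12 in LMPP, 16 and 14 in WT MDP, 15 and 13 in CDP, and 14 and 20 in IRF8KO MDP of its 24 regions detected. Its accessible length was 2.93 and 8.63 kb in LT-HSC, 6.03 and 8.04 kb in LMPP, 13.2 and 10.1 kb in WT MDP, 13.1 and 11.6 kb in CDP, and 11.7 and 16.2 kb in IRF8KO MDP. All 6 MDP and CDP libraries lay above LT-HSC and LMPP, and knockout replicate 2 was the highest. The difference from LT-HSC to CDP was 1.20 ± 0.40 (SE; limma adjusted p = 0.0277), and 0.43 after centring, 1.13 from regions inside the gene span only (limma adjusted p = 0.0642), and 0.70 with trimmed lists (limma adjusted p = 0.105). A region inside the gene (chr4:8712047-8713363) was detected in all 6 MDP and CDP libraries and no other. Both chr4:8788337-8789298 and chr4:8857337-8858104 were detected in the WT and knockout MDP libraries and no other, and chr4:8821428-8823735 in those and LT-HSC replicate 2. Neither CDP library had any of these 3, and none of the Chd7 regions was lost in the knockout.

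Chd4 (gene 107932, chromosome 6, 125095980 to 125130591), the ATPase of the NuRD complex, had 6.19 and 8.8 kb in LT-HSC, 7.86 and 9.08 kb in LMPP, 11.3 and 10.9 kb in WT MDP, 14.5 and 12.6 kb in CDP, and 8.64 and 10.2 kb in IRF8KO MDP. CDP lay above WT MDP and WT MDP above the rest, with LT-HSC, LMPP and knockout overlapping. The difference to CDP was 0.83 ± 0.23 (SE; limma adjusted p = 0.012), and 0.06 after centring and 0.25 from regions inside the gene span only (limma adjusted p = 0.31). Its region chr6:125082902-125083569, inside the neighbour Lpar5, was detected in WT MDP and CDP only, and chr6:125104189-125104746 inside Chd4 in LT-HSC only. Smarca4 (gene 20586, chromosome 9, 21616106 to 21704230), the SWI/SNF ATPase BRG1, had 2.23 and 3.07 kb in LT-HSC, 2.33 and 2.56 kb in LMPP, 2.75 and 2.79 kb in WT MDP, 6.12 and 4.84 kb in CDP, and 2.17 and 3.15 kb in IRF8KO MDP. CDP lay above the other 8 libraries, which spanned 2.17 to 3.15 kb. Between LT-HSC and CDP it differed by 0.93 ± 0.23 (SE; limma adjusted p = 0.00842), and 0.16 after centring and 0.35 from regions inside the gene span only (limma adjusted p = 0.102). One region beyond the gene (chr9:21718776-21719411) was detected in CDP only.

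Smarca2 (gene 67155, chromosome 19, 26605073 to 26778321), the alternative ATPase BRM, had 4.98 and 7.0 kb in LT-HSC, 7.5 and 7.7 kb in LMPP, 8.08 and 6.85 kb in WT MDP, 11.0 and 9.67 kb in CDP, and 4.58 and 6.38 kb in IRF8KO MDP. CDP was highest, and the knockout libraries lay below both WT MDP libraries. Against LT-HSC, CDP differed by 0.76 ± 0.23 (SE; limma adjusted p = 0.0206), but -0.01 after centring. Regions inside the gene at chr19:26635448-26636199 and chr19:26643863-26644427 were detected in WT MDP and CDP only, chr19:26612833-26613584 in LT-HSC and LMPP only, and chr19:26693753-26694382 in CDP only. Of the other SWI/SNF subunits, Arid1a ranged over 5 to 10 of 11 regions and 4.67 to 13.6 kb and Arid2 over 3 to 4 of 6 regions and 6.08 to 8.57 kb, and no Arid2 region was gained or lost along the WT path.

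Among the acetylation genes (44 regions at 6 genes), 19 and 28 regions were detected in LT-HSC, 23 and 29 in LMPP, 26 and 24 in WT MDP, 28 and 30 in CDP, and 22 and 22 in IRF8KO MDP. Ep300 (gene 328572, chromosome 15, 81586209 to 81652077), the acetyltransferase p300, had 2.49 and 2.68 kb in LT-HSC, 2.55 and 2.96 kb in LMPP, 3.42 and 4.25 kb in WT MDP, 4.78 and 3.87 kb in CDP, and 2.65 and 2.63 kb in IRF8KO MDP. WT MDP and CDP lay above all other libraries, and the knockout lay within the LT-HSC and LMPP values. The difference from LT-HSC to CDP was 0.64 ± 0.20 (SE; limma adjusted p = 0.0215), but -0.13 after centring. A region 17.5 kb before its start (chr15:81567944-81569429) was detected in WT MDP, CDP and LMPP replicate 2 and in neither knockout library. Crebbp, its relative CBP, ranged over 3 to 7 of 9 regions and 2.76 to 5.99 kb, with 1 region in CDP only (chr16:4128809-4129323).

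Hdac1 (gene 433759, chromosome 4, 129516104 to 129542646), a class I deacetylase, had 2.13 and 6.48 kb in LT-HSC, 5.91 and 7.42 kb in LMPP, 6.26 and 7.35 kb in WT MDP, 8.99 and 10.1 kb in CDP, and 6.76 and 8.69 kb in IRF8KO MDP. CDP was highest, LT-HSC replicate 1 was far below every other library, and LT-HSC replicate 2 lay within the LMPP values. CDP and LT-HSC differed by 1.23 ± 0.38 (SE; limma adjusted p = 0.021), and 0.46 after centring. The region chr4:129507683-129508583 beside it was detected in WT MDP and CDP only, chr4:129502857-129503366 in CDP only, and chr4:129558134-129558875, inside the T cell kinase gene Lck, in LMPP only. Hdac2 and Hdac3, the related deacetylases, ranged over 1 to 3 of 3 regions and 1.7 to 3.29 kb and 6 to 9 of 11 regions and 6.12 to 10.2 kb, with no region gained or lost in any comparison. All 11 Hdac3 regions lay outside the gene, 10 of them inside other genes. Ncor1, a corepressor that binds HDAC3, ranged over 2 to 4 of 7 regions and 2.79 to 4.58 kb, with 1 region in CDP only (chr11:62387446-62387978).

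At the H3K36 methyltransferases (18 regions at 2 genes), 8 and 9 regions were detected in LT-HSC, 10 and 11 in LMPP, 10 and 9 in WT MDP, 14 and 12 in CDP, and 8 and 10 in IRF8KO MDP. Setd2 (gene 235626, chromosome 9, 110532500 to 110618633), which trimethylates H3K36 over transcribed genes, had 2.6 and 3.5 kb in LT-HSC, 2.56 and 3.69 kb in LMPP, 3.71 and 3.26 kb in WT MDP, 5.06 and 5.52 kb in CDP, and 3.16 and 3.81 kb in IRF8KO MDP. CDP lay above all other libraries, which overlapped. The CDP difference from LT-HSC was 0.72 ± 0.23 (SE; limma adjusted p = 0.0229), but -0.06 after centring and 0.09 with trimmed lists (limma adjusted p = 0.779). One region before its start (chr9:110527524-110528197) was detected in CDP only. Nsd1 (gene 18193, chromosome 13, 55209782 to 55318325), which dimethylates H3K36, had 5.15 and 6.84 kb in LT-HSC, 7.24 and 6.87 kb in LMPP, 7.41 and 7.77 kb in WT MDP, 10.9 and 9.01 kb in CDP, and 6.15 and 7.77 kb in IRF8KO MDP. CDP was again highest, and WT MDP and knockout shared their upper value. The difference to CDP was 0.69 ± 0.21 (SE; limma adjusted p = 0.021), but -0.08 after centring, 0.28 from regions inside the gene span only (limma adjusted p = 0.206), and 0.43 with trimmed lists (limma adjusted p = 0.0681). The region chr13:55318108-55319156 at a gene end was present in the 6 LMPP, WT MDP and CDP libraries but in none of LT-HSC or knockout, chr13:55255209-55255709 in LMPP only, and chr13:55205028-55205562 in CDP only.

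At CTCF and the cohesin genes (20 regions at 4 genes), 9 and 10 regions were detected in LT-HSC, 14 and 11 in LMPP, 11 and 11 in WT MDP, 13 and 14 in CDP, and 11 and 12 in IRF8KO MDP. Stag2 (gene 20843, chromosome X, 42149297 to 42277186), an X-linked cohesin subunit, had 2.83 and 3.92 kb in LT-HSC, 5.38 and 5.5 kb in LMPP, 5.63 and 5.18 kb in WT MDP, 6.25 and 6.55 kb in CDP, and 4.71 and 5.99 kb in IRF8KO MDP. LT-HSC was lowest and CDP highest, and LMPP, WT MDP and knockout overlapped. From LT-HSC to CDP it differed by 0.85 ± 0.21 (SE; limma adjusted p = 0.00783), and 0.08 after centring and 0.38 with trimmed lists (limma adjusted p = 0.137). The region chrX:42142316-42143286 was detected in all 8 libraries after LT-HSC and in neither LT-HSC library. Inside the gene, chrX:42159620-42160268 was detected in CDP only and chrX:42170671-42171299 in the knockout only. Ctcf, Rad21 and Smc3 ranged over 4 to 5 of 5 regions and 5.21 to 7.24 kb, 1 to 3 of 3 regions and 1.24 to 3.44 kb and 2 to 3 of 4 regions and 1.63 to 2.84 kb. Rad21 had no region gained or lost in any comparison.

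Patterns over groups sorted the member regions further. Regions detected in exactly the 2 libraries of 1 group numbered 22 for CDP (5.19% of 424, beside 4.62% of all regions), 10 for LMPP (2.36% beside 3.78%), 8 for IRF8KO MDP (1.89% beside 1.76%), 3 for LT-HSC (0.708% beside 1.3%) and 2 for WT MDP (0.472% beside 0.361%). Those of the knockout lay at Arid1b, Asxl2, Ezh1 (chr11:101180788-101181346), Eed (chr7:89967055-89967689), Jarid2 (chr13:44922766-44923273), Stag2 and Smc3 (chr19:53608895-53609427). A further 10 regions (2.36%, interval 1.29 to 4.29) were present in the 4 WT MDP and CDP libraries and absent from the other 6, beside 3.89% of all regions. They lay at Asxl1, Asxl2, Chd4, Hdac1, Kmt2a, Kmt2c, Kmt2d and Smarca2, and by their pattern all belong to the 23 lost in the knockout. Another 9 (2.12%) were shared by all 6 MDP and CDP libraries, knockout included, and no other, beside 2.19% of all, and 9 were in all 8 libraries after LT-HSC, beside 3.18%. Only 6 (1.42%) were in LT-HSC and LMPP only, beside 2.01%. No member region was in every library but the 2 knockout libraries (0 of 424, upper Wilson bound 0.898%), beside 0.482% of all regions.

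Of the 39 members, 35 (89.7%) had at least 1 region gained or lost in 1 of the 5 comparisons, beside 91.7% of the 15841 genes with at least 3 regions. Of the 424 regions, 147 (34.7%) changed in at least 1 comparison, beside 47.1% of all regions. Bmi1, Hdac2, Hdac3 and Rad21 had none.

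Other chromatin genes, a list of 99 with 843 regions in their windows, were fitted in the same model. From LT-HSC to LMPP, 9 of 99 were called longer and 0 shorter (beside 11.2% and 0.17% of all genes). Those with the largest differences encode Polycomb subunits: Cbx2 at 1.54 ± 0.31 (SE; limma adjusted p = 0.0214), Cbx8 at 1.38 ± 0.36 (0.041) and Phc2 at 1.22 ± 0.28 (0.0299). Windows of these 99 genes were not kept from sharing regions. Cbx2 and Cbx8 both had 627 bp in LT-HSC replicate 1, so they may not be separate observations. From LMPP to WT MDP, 4 were longer and 1 shorter (beside 2.76% and 3.12% of all genes). They were led by the acetyltransferase gene Kat2a at 1.25 ± 0.26 (limma adjusted p = 0.0253) and the H3K9 methyltransferase gene Ehmt2 at 1.23 ± 0.30 (0.0429). From LT-HSC to CDP, 50 were longer and 1 shorter (beside 53% and 3.86%), led by Cbx8 at 2.23 ± 0.36 (limma adjusted p = 0.00134). None was called between WT MDP and CDP (beside 0.247% of all genes) or between WT and knockout MDP (beside 1.3%). In each of these, 11 of 99 had an unadjusted p under 0.05, beside 13.2% and 14% of all genes.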

How the data were processed

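Members, role lists and tests were chosen with earlier results of these data known. ATAC-seq peaks were called by the authors in each library separately with HOMER and no control library, per the file headers, with 500 bp as the starting size, 1000 bp as the least distance between peaks, a false discovery rate of 0.001, 4-fold over the local 10 kb and at most 1 tag per bp. Bowtie 1.1.2, HOMER 4.9 and the builds mm10 and GRCm38 are named in the submitters' processing notes. Any shift of reads for the transposase was not given in the sources used here. Per the files, the score column deposited by the authors is 1 throughout and was not used, so detection and peak length were compared, not tag counts. The other deposited columns used were peak positions.

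Regions, windows and shares were computed with Python 3.11.15, pandas 2.3.3 and numpy 2.4.6, Wilson intervals with scipy 1.17.1, and accessible length with limma 3.58.1 in R 4.3.3 (trend and robust options, group means only, genes with a mean of at least 500 bp, pseudocount 500 bp), a step tested on simulated data. Gene spans and start windows came from RefSeq's GRCm38.p6 tables. No blacklist was used. Values in every library are given for members that limma called in any comparison and for the 12 members with the most changed regions. Each region named changed in a comparison or was found in both libraries of 1 group alone, in order of the number of comparisons in which it changed. Other chromatin genes named are the 3 called with the largest difference.

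Alternatives tried were a 50% cover for detection, lists trimmed to the shortest (31325 peaks), regions inside gene spans only, a 50 kb window, regions over 1 kb from a gene end, pseudocounts of 100 and 2000 bp, no filter, library centring, a replicate block, and leaving out each library.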

Additional observations from a re-analysis of the deposited data

How the results depend on the processing

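Trimming every list to 31325 peaks assumes that row order follows strength, which the lists cannot show. Gained and lost member regions then were 2.12% and 3.3% from LT-HSC to LMPP, 6.37% and 5.19% from LT-HSC to CDP, 0.943% and 1.18% from WT MDP to CDP, 5.42% and 2.83% from LMPP to WT MDP, and 3.3% and 1.89% in the knockout. Losses thus exceeded gains from LT-HSC to LMPP (14 against 9 regions) and, barely, from WT MDP to CDP (5 against 4). Gains exceeded losses in the knockout (14 against 8). The order of member regions in the full lists was the opposite in each. Over all regions, trimmed gains and losses were 4.32% and 3.47% from LT-HSC to LMPP and 2.82% and 2.51% from WT MDP to CDP. They were 9.1% and 7.67% from LT-HSC to CDP, 5.75% and 6.04% from LMPP to WT MDP, and 2.93% and 3.56% in the knockout. In every comparison all regions kept the order they had in the full lists. At the H3K4 and H3K27 genes, an alternative chosen after seeing the data, knockout losses fell from 17.5% to 2.5% with trimmed lists. They were 17.5% to 20% with each library left out. Over all regions, knockout losses fell from 8.99% to 3.56% with trimmed lists and were 10.8% to 13.6% with each library left out.

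Members called are given with the share of all genes called under the same setting in brackets. From LT-HSC to LMPP they numbered 1 with a pseudocount of 100 bp (7.8%), 4 after centring (14.9%) and 0 inside gene spans (9.59%). From LMPP to WT MDP they numbered 3 after centring (23.2%), 4 with trimmed lists (18.7%) and 1 inside spans (7.04%). From WT MDP to CDP they numbered 1 with trimmed lists (4.6%). From LT-HSC to CDP they numbered 10 after centring (38.9%), 13 with trimmed lists (41.7%) and 11 inside spans (41.6%). Setd2 and Ep300 fell under the length filter inside spans and were not tested there. Among the 20 members called from LT-HSC to CDP, centring turned the difference of Dnmt3b (-0.04), Tet3 (-0.01), Setd2 (-0.06), Asxl2 (-0.17), Nsd1 (-0.08), Ep300 (-0.13), Smarca2 (-0.01) and Kdm6a (-0.12). The inside-span setting turned that of Asxl2 (-0.03). Of the members not called there, centring turned every positive difference except those of Arid1a (0.05) and Suz12 (0.04). The cause was not tested. Over all genes, trimmed lists gave 73.6% of calls longer from LT-HSC to LMPP, 65.8% from WT MDP to CDP and 17.1% in the knockout.

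Leaving out 1 library assumes that the lone sample varies like the other groups, and eases the rule for a gained or lost region. Gained member regions then ranged from 9.43% to 17.7% (LT-HSC to LMPP), 8.02% to 11.1% (LMPP to MDP) and 8.73% to 12.7% (MDP to CDP). They ranged from 20.5% to 28.8% (LT-HSC to CDP) and from 3.07% to 7.78% (knockout). Over all regions the gained ranges were, in that order, 13% to 23.6%, 12.1% to 14.6%, 8.84% to 11%, 24.3% to 32.2% and 3.69% to 5.86%. Lost member regions ranged from 1.42% to 5.9%, 8.25% to 10.8%, 2.83% to 4.95%, 2.83% to 9.67% and 6.37% to 9.67% in that order. Beside them, losses over all regions ranged from 1.94% to 6.76%, 12.4% to 15.2%, 4.66% to 7.04%, 5.77% to 14.3% and 10.8% to 13.6%. A fit of accessible length without 1 library leaves a lone library in a group. In these fits the median difference over all genes ranged from 0.11 to 0.70 (LT-HSC to LMPP) and 0.43 to 1.015 (LT-HSC to CDP). Counts of members called in such fits cannot be read as specific to the members, and are given as a range only. The lowest and highest counts of members called were 0 and 22 from LT-HSC to LMPP, 5 and 31 from LT-HSC to CDP, and 0 and 0 in the other 3 comparisons.

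Over the 10 pairs of groups, deviations of same-numbered libraries correlated at -0.0165 to 0.0129 across regions, so detection showed no pairing by replicate number. Whether libraries with equal numbers share an animal was not tested. With the replicate block, members called from LT-HSC to CDP numbered 19 (beside 56.3% of all genes) and from LT-HSC to LMPP 2 (beside 10.6%). They numbered 0 from LMPP to WT MDP (beside 5.4%), from WT MDP to CDP (beside 0.153%) and in the knockout (beside 1.03%). The lists hold no tag count per region, so a region that was not detected may be weak rather than closed.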
